A study of Mus musculus with 6 samples.

Results

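Prg4, Clic5, Tspan15, Hbegf, Htra4 and Htra1 are transcripts used to recognise the fibroblasts of the synovial lining, and their values were followed in arthritic synovial fibroblasts (SFs) given amisulpride. The members were taken by gene name from the deposited table, which held all 6 of them among 49548 genes. Primary SFs had been grown from the ankle joints of hTNFtg mice, which carry a human TNF transgene and develop inflammatory arthritis, so the controls carry the transgene too. The 3 control libraries are labelled as having had no treatment, and are called untreated. The other 3 libraries came from hTNFtg SFs given 500 μM amisulpride, an antipsychotic drug, for 48 h. Cells bearing CD45, the surface protein of blood-derived cells, had been depleted from the cultures at an early passage. The mice were 8 weeks old and of the CBA C57BL/6J background, and the promoter of the transgene is not given in the sources used here.

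The lining is a thin sheet of fibroblasts and macrophages that faces the joint cavity. Its fibroblasts secrete hyaluronan and lubricin, the fluid-phase lubricants of cartilage, and in arthritis the sheet thickens and releases enzymes that degrade matrix. The fibroblasts beneath it, in the sublining, carry the surface protein Thy1 (CD90), which lining fibroblasts largely lack. Among the lining markers, Prg4 encodes lubricin, and Htra1 and Htra4 encode secreted serine proteases. Hbegf encodes a membrane-anchored growth factor that is cut free to bind the EGF receptor. Tspan15 encodes a tetraspanin that guides the protease ADAM10 to its substrates. Clic5 encodes a chloride channel-like protein that associates with ezrin beneath the plasma membrane.

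Lubricin owes its slipperiness to a long central domain of short repeats, rich in threonine and proline, that carry sugar chains. A stretch of that domain is shown because Prg4 is the lubricant among the markers and because repeated sequence could bear on where its reads map. The stretch covers transcript bases 1065 to 1208 of the longest protein-coding Prg4 transcript annotated in GENCODE M21 (GRCm38), which is 4263 bases long and whose coding part runs from base 26 to base 3688. Capitals mark exact copies of a unit of 24 bases, of which the stretch holds 2 and the transcript 18.
Prg4 repeat stretch: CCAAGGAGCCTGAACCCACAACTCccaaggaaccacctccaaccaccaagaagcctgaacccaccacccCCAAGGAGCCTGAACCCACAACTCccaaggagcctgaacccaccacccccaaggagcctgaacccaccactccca
The last exact copy ended 1909 bases before the end of the transcript, whereas the 3′ kit used here yields reads near that end. In the last 400 bases of this Prg4 transcript, 0 of 371 words of 30 bases occurred in a transcript of another gene on the same strand.

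The promoters of Htra1 and Tspan15 are shown to give the sequence at which their transcripts start. Of the members with a window used here, these 2 could be tested for a difference. The windows come from RefSeq (GRCm38.p6) and run from 250 bases before to 50 bases after the annotated start. Windows were used for 3 of the 6 members, Clic5, Tspan15 and Htra1. Those of Prg4, Hbegf and Htra4 were not used, which does not mean that they lack an annotated promoter. Capitals mark matches to any of 5 motifs searched on both strands, namely AP-1 (TGANTCA), the GC box (GGGCGG), the CCAAT box (CCAAT), the TATA box (TATAAA) and the TEAD element (GGAATG).
Htra1, chr7:130935953-130936252, plus strand: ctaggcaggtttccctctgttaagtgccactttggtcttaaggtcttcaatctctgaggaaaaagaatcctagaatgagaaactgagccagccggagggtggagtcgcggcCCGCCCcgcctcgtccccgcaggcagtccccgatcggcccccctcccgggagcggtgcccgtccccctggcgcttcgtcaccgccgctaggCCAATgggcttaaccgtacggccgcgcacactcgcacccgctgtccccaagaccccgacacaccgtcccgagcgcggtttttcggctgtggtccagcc
Tspan15, chr10:62231169-62231468, minus strand: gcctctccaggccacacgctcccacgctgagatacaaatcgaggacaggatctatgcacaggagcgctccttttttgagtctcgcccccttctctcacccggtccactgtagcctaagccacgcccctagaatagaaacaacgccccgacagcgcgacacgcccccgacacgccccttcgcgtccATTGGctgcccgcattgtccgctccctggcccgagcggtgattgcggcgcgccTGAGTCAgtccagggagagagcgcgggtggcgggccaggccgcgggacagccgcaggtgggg
The window of Htra1 was 65.0% G and C and held a GC box 139 bases before the start and a CCAAT box 48 bases before it. The Htra1 gene span given below starts at 130936111, inside this window and upstream of the RefSeq start. The distances for Htra1 thus hold for the RefSeq start alone. The window of Tspan15 was 66.3% G and C and held an AP-1 match 12 bases before the start and a CCAAT box, on the other strand, 65 bases before it. These letters are common, since an AP-1 match stood in 7.8% of 32851 promoter windows of the same length, a GC box in 35.7%, a CCAAT box in 37.4%, a TATA box in 13.6% and a TEAD element in 14.7%. Neither window held the TATA box or the TEAD element, and a match is a description of the letters and not a binding site.

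Values are read numbers per gene normalised between libraries by the authors and rounded, called normalised counts. The libraries summed to 3832980 to 4504242 normalised counts, and 5 of them held approximately 2.52 to 4.71 M reads, while the depth of untreated replicate 1 could not be determined. Amisulpride replicate 3, the shallowest of these 5 libraries, stood apart on the leading principal component at 73.9, with the other libraries between -38.2 and 10.4, so member values are also given without it where it matters. Transcripts of the fibroblast list, such as the collagens, Vim, Pdgfra and Pdpn, were detected for 10 of 10 genes.

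The question for each marker was whether its level differed between treated and untreated hTNFtg SFs by more than the spread between cultures. Of the 6 markers, 4 reached 10 normalised counts in at least 3 of the 6 libraries and were tested with limma, and Clic5 and Htra4 did not. The study called genes whose log2 fold change was 1 or more in size and whose unadjusted p was under 0.05. At these thresholds 1 member, Htra1, was called lower and 0 were called higher, where 5.7% of the 12614 genes tested were called, 3.01% as lower and 2.69% as higher. No member had an adjusted p under 0.05 in limma, as had 0.285% of all genes, while 2 members, Prg4 and Htra1, had an unadjusted p under 0.05, both lower, as had 10.9% of all genes, 5.77% lower and 5.11% higher. Prg4 was the 1 member with treated values wholly below the untreated ones, as were 8.66% of all genes. Fold changes lay below 0 for Prg4, Htra1 and Hbegf and above 0 for Tspan15, where 49.9% of all genes lay below 0, with a median of -0.78 against 0.002 over all genes tested. In these bulk cultures, fewer cells of a type and less RNA per cell cannot be told apart.

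**Figure D1:**
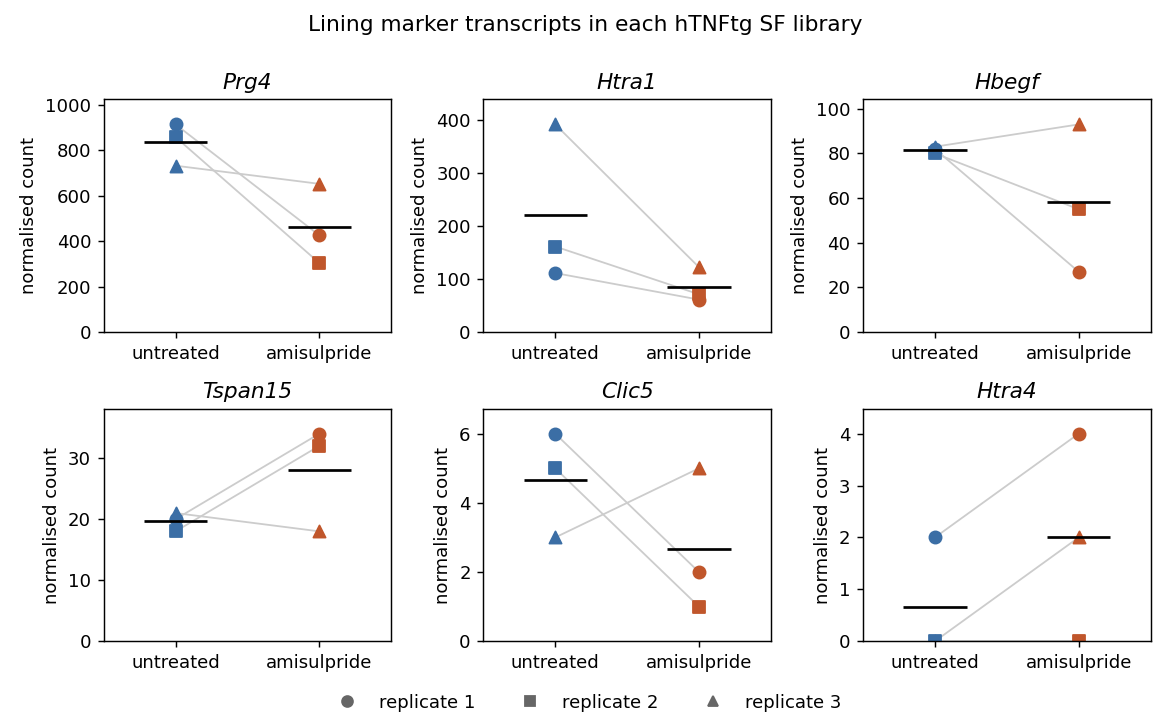
Normalised counts of the 6 lining markers in each library, with the group on the x axis, 1 point per library, the group mean as a black bar and grey lines joining libraries with the same replicate number. The y axes start at 0 and differ between panels. The 3 treated Prg4 points, from 304 to 653, lie below the 3 untreated ones, from 733 to 915, whereas the groups overlap for Htra1, Hbegf and Tspan15.

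Prg4 (ENSMUSG00000006014) lies on mm10 chromosome 1, 150449412 to 150466165, on the minus strand. Its normalised counts were 915, 859 and 733 in untreated replicates 1 to 3 and 426, 304 and 653 in amisulpride replicates 1 to 3. All treated values were under the lowest untreated one, and amisulpride replicate 3 lay nearest to it. The mean was 836 ± 93.2 in untreated and 461 ± 177 in treated SFs (SD, n = 3), so that the treated mean was 55.2% of the untreated one. On the log2(normalised count + 1) scale used for all tests, the fold change was -0.92 ± 0.29 (SE), with a 95% interval of -1.57 to -0.28 and an adjusted p of 0.251 in limma. The unadjusted p of 0.00924 passed the threshold of the study and the fold change did not reach it. Between libraries of the same number, the log2 difference was -1.10, -1.50 and -0.17.

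The size of the Prg4 difference rested on single libraries. Without amisulpride replicate 3 it was -1.21 ± 0.25, with an adjusted p of 0.0424 in limma, and without amisulpride replicate 2 it was -0.66 with an unadjusted p of 0.0507. Without untreated replicate 3 it was -1.01, past both thresholds of the study.

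The end of Prg4 is shared with a neighbour. Tpr, which encodes a nuclear pore protein and is transcribed from the plus strand, ends tail to tail with it, and the last Tpr exon (chromosome 1, 150449732 to 150449935) lies wholly within the 3′ UTR of Prg4 (chromosome 1, 150449412 to 150449986). All 204 bases of that exon are thus part of the 575 bases in which reads of Prg4 are expected. Whether the counting used strand is not given in the sources used here, and without strand the reads of Prg4 and Tpr cannot be told apart.

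Tpr stood at 160, 132 and 169 normalised counts in untreated and at 112, 139 and 177 in treated libraries. The groups overlapped, and the log2 fold change of Tpr was -0.12 ± 0.27 with an unadjusted p of 0.654 in limma. Subtracting the Tpr value from the Prg4 value in each library, an alternative chosen after the data were seen, left 755, 727 and 564 in untreated and 314, 165 and 476 in treated SFs. The groups again did not overlap, and the log2 fold change was then -1.21 ± 0.35, with an unadjusted p of 0.00518 and an adjusted p of 0.207 in limma. Taking a similar amount from both groups enlarges a log2 fold change by arithmetic, so this value adds no support to the Prg4 difference. It also takes all Tpr reads to have been counted in Prg4, which is not known.

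**Figure D2:**
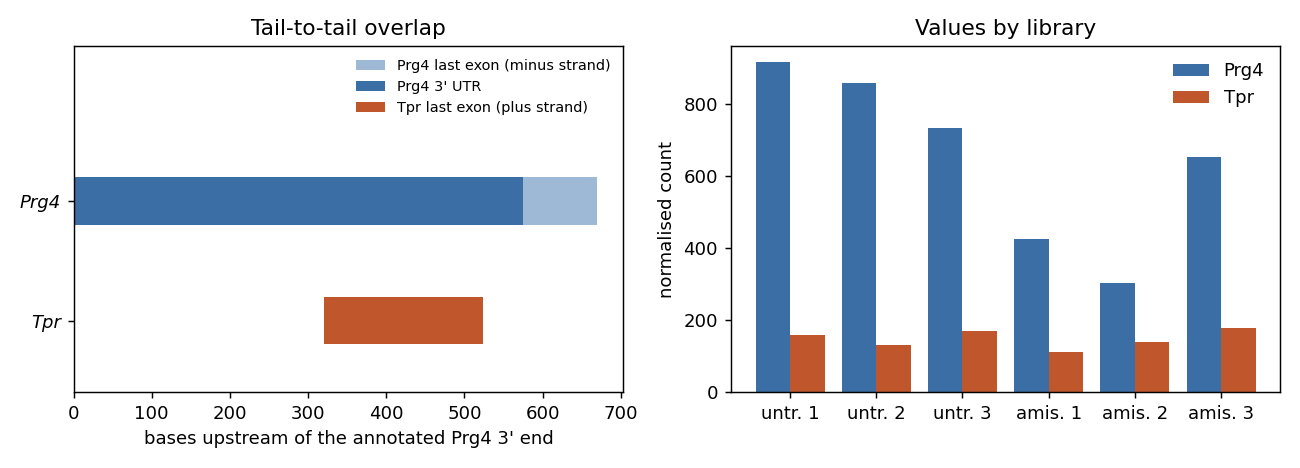
Left, position of the last exon and 3′ UTR of Prg4 and of the last exon of Tpr, drawn to scale in bases upstream of the annotated Prg4 end. Right, normalised counts of both genes in each library (bars, from 0). Tpr ranges from 112 to 177 in all 6 libraries and Prg4 from 304 to 915.

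Chondrocytes of the cartilage surface also make lubricin, so cartilage transcripts are given beside Prg4. Acan, encoding the main cartilage proteoglycan, was listed at 0 in 5 libraries and at 2 in amisulpride replicate 3. Col2a1, encoding cartilage collagen, stood at 9, 8 and 12 in untreated and at 4, 3 and 9 in treated SFs, while Col9a1, Matn1 and Cytl1 were listed at 0 throughout. The defining cartilage transcripts were thus at or near 0 in both groups, although Comp and Sox9, which tendon and other connective tissue cells express too, were present, and the 9 genes together summed to 591 to 1263 in untreated and 819 to 1613 in treated SFs.

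Genes of joint lubrication and of the pathways known to act on Prg4 were read from a list of 12, of which 11 were found by symbol and 9 were tested. None passed the thresholds of the study in either direction, and the median log2 fold change was -0.09. Has2, a hyaluronan synthase, stood at 80, 101 and 52 in untreated and at 92, 41 and 116 in treated SFs, so that the groups overlapped. Cd44, the cell-surface receptor for hyaluronan, stood at 1538, 1517 and 1175 in untreated and at 1497, 1049 and 916 in treated SFs, with a log2 fold change of -0.31 ± 0.26 and an unadjusted p of 0.266 in limma. Tlr4, encoding an innate immune receptor that lubricin can bind, had a log2 fold change of -0.41 and Foxo3, encoding a transcription factor, one of 0.28, with unadjusted p of 0.207 and 0.273. Tgfb1, encoding a growth factor that raises Prg4 in cartilage and synovium, was under the filter at 13, 9 and 14 in untreated and 6, 4 and 2 in treated SFs.

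Htra1 (ENSMUSG00000006205) lies on mm10 chromosome 7, 130936111 to 130985660, on the plus strand. The secreted protease it encodes cleaves fibronectin, proteoglycans and other matrix proteins and is abundant in arthritic joint tissue. Its normalised counts were 111, 161 and 391 in untreated and 61, 71 and 122 in treated SFs. Untreated replicate 3 was far above the other untreated libraries, and amisulpride replicate 3, at 122, lay above untreated replicate 1. Htra1 fell from 221 ± 149 to 84.7 ± 32.7 normalised counts (SD, n = 3), 38.3% of the untreated mean. The log2 fold change was -1.23 ± 0.44, with a 95% interval of -2.19 to -0.27, an unadjusted p of 0.0163 and an adjusted p of 0.304 in limma.

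Within each replicate number Htra1 was lower in the treated library, with log2 differences of -0.85, -1.17 and -1.67. With the replicate number as a block, which takes out what same-numbered libraries share, the standard error of Htra1 was 0.28 and its adjusted p 0.0284 in limma, the 1 member whose call changed at that threshold. The call at the thresholds of the study was lost without untreated replicate 3, where the log2 fold change was -0.72 with an unadjusted p of 0.0929, and without amisulpride replicate 1, where it was -1.03 with an unadjusted p of 0.0636.

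Both libraries numbered 3 were also the highest of their group for Fn1, encoding fibronectin, at 14008 against 5956 and 7019 in untreated and at 20335 against 8707 and 8222 in treated SFs. Between the groups, the log2 fold change of Fn1 was 0.44 ± 0.43 with an unadjusted p of 0.327 in limma. The part of this difference between cultures in the Htra1 result was not tested.

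Htra1 lies within the annotated span of Fgfr2 (chromosome 7, 130162451 to 133123350), a growth factor receptor gene on the minus strand. The annotated 3′ end of Fgfr2, at 130162451, lies outside Htra1 (130936111 to 130985660). The 2 genes thus do not share an end as Prg4 and Tpr do. Fgfr2 stood at 72, 100 and 54 normalised counts in untreated and at 145, 108 and 161 in treated SFs, a log2 fold change of 0.89 ± 0.31 with an unadjusted p of 0.014 and an adjusted p of 0.284 in limma. The treated values of Fgfr2 all lay above the untreated ones, where the treated mean of Htra1 was lower. Fgfr2 was at its lowest in the library where Htra1 was at its highest. Among treated libraries, however, both genes were highest in replicate 3, at 161 for Fgfr2 and 122 for Htra1. A relation between these genes was not tested. Fgfr2 was named for its position and after its values had been seen.

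Htra4 (ENSMUSG00000037406; chromosome 8, 25024929 to 25038962, minus strand) was listed at 2, 0 and 0 in untreated and at 4, 0 and 2 in treated SFs. A count of 0 is compatible with up to 3 reads, and among the 5 libraries whose depth could be determined amisulpride replicate 1 was the 1 library above the value of 3 reads. A difference in Htra4 was not detectable at this depth. A noncoding RNA, Gm16933, overlaps Htra4 on the opposite strand and was listed at 0 in 5 libraries and at 4 in amisulpride replicate 3.

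The other HTRA proteases did not pass the thresholds of the study. Htra3, a secreted protease like HTRA1, stood at 72, 61 and 93 in untreated and at 47, 32 and 88 in treated SFs, with a log2 fold change of -0.53 ± 0.38 and an unadjusted p of 0.189 in limma. Htra2, which encodes a mitochondrial protease, stood at 104, 130 and 115 in untreated and at 68, 56 and 168 in treated SFs, with a log2 fold change of -0.42 ± 0.38 and an unadjusted p of 0.294. For both genes amisulpride replicates 1 and 2 lay below every untreated library and amisulpride replicate 3 within or above the untreated values.

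Hbegf (ENSMUSG00000024486) lies on mm10 chromosome 18, 36504929 to 36515805, on the minus strand. Its normalised counts were 82, 80 and 83 in untreated and 27, 55 and 93 in treated SFs. The untreated cultures were nearly equal, whereas the treated ones ran from the lowest to the highest value of all 6 libraries. The mean was 81.7 ± 1.53 in untreated and 58.3 ± 33.1 in treated SFs (SD, n = 3), and the log2 fold change was -0.65 ± 0.40, with a 95% interval of -1.53 to 0.23 and an adjusted p of 0.601 in limma. Amisulpride replicates 1 and 3 both moved this value. Without replicate 1 the log2 fold change was -0.19, and without replicate 3 it was -1.06 ± 0.34, past the thresholds of the study, with an unadjusted p of 0.00903 and an adjusted p of 0.198 in limma.

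Macrophages also express Hbegf, and their transcripts were present in spite of the CD45 depletion. Ptprc, which encodes CD45, stood at 38, 12 and 18 in untreated and at 23, 5 and 5 in treated SFs. Of 12 macrophage transcripts 11 were tested, Vsig4, a marker of resident lining macrophages, being listed at 0 in every library. Cx3cr1, by contrast, stood at 69, 45 and 47 in untreated and at 62, 12 and 18 in treated SFs. Trem2 stood at 65, 30 and 18 in untreated and at 78, 29 and 55 in treated SFs. The list summed to 4082, 2377 and 2897 normalised counts in untreated and to 4195, 2367 and 2199 in treated SFs, most of it Lyz2. Without Lyz2 the sums were 1036, 644 and 709 in untreated and 908, 488 and 805 in treated SFs. Amisulpride replicate 1, the lowest library for Hbegf, was the highest treated library in both sums. Single genes differed from the sums, with Csf1r and Hbegf both highest among treated libraries in replicate 3. The part of macrophages in the Hbegf values was not tested. Csf1r, the receptor of a macrophage growth factor, passed the thresholds of the study, at 114, 93 and 76 in untreated and 41, 23 and 100 in treated SFs, with a log2 fold change of -1.01 ± 0.46, an unadjusted p of 0.0486 and an adjusted p of 0.456 in limma. That call was lost without any 1 of 5 libraries, the exception being amisulpride replicate 3, and the 11 macrophage genes lay above 0 in 5 cases and below it in 6, with a median of -0.14.

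HB-EGF belongs to a family of EGF receptor ligands, of which Hbegf and Ereg were the tested members. Ereg, encoding epiregulin, stood at 53, 39 and 58 in untreated and at 50, 17 and 52 in treated SFs, with a log2 fold change of -0.46 ± 0.44 and an unadjusted p of 0.309 in limma. Areg was listed at 0 in every library, and Egf, Tgfa, Btc and Epgn were under the filter. Egfr, the receptor of HB-EGF, stood at 132, 172 and 204 in untreated and at 177, 254 and 152 in treated SFs, with overlapping groups and a log2 fold change of 0.19 ± 0.29 (unadjusted p of 0.528 in limma). Erbb2, its partner receptor, stood at 31, 30 and 29 in untreated and at 21, 37 and 20 in treated SFs, with a log2 fold change of -0.25 ± 0.37 and an unadjusted p of 0.511. Erbb4, which also binds HB-EGF, was listed at 0 throughout.

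The proteases that release HB-EGF from the cell surface, with their iRhom and tetraspanin partners, made a list of 8 genes that were all tested. None passed the thresholds of the study, 4 lay above and 4 below 0, and the median log2 fold change was -0.04. Adam17, the main sheddase of EGF receptor ligands, stood at 821, 750 and 846 in untreated and at 787, 751 and 446 in treated SFs, where amisulpride replicate 3 was the lowest library. Adam12, another HB-EGF sheddase, had the lowest p of the list, with a log2 fold change of -0.56 ± 0.30 and an unadjusted p of 0.091 in limma. Cd9 and Cd81, tetraspanins that associate with membrane-anchored HB-EGF, had log2 fold changes of 0.37 and 0.36, with unadjusted p of 0.206 and 0.225.

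Tspan15 (ENSMUSG00000037031) lies on mm10 chromosome 10, 62185396 to 62231218, on the minus strand. Its normalised counts were 20, 18 and 21 in untreated and 34, 32 and 18 in treated SFs. Amisulpride replicates 1 and 2 lay above every untreated library, and amisulpride replicate 3 was level with the lowest. The mean was 19.7 ± 1.53 in untreated and 28 ± 8.72 in treated SFs (SD, n = 3), and the log2 fold change was 0.44 ± 0.40, with a 95% interval of -0.43 to 1.31 and an adjusted p of 0.735 in limma. It stayed between 0.28 and 0.72 when any 1 library was left out and passed no threshold. Of the 371 words of 30 bases at the end of Tspan15, 14.3% also occurred in transcripts of other genes, a share that was 0 for the other 5 members, so some of its reads may map to more than 1 place.

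TSPAN15 is one of the TspanC8 tetraspanins, which carry ADAM10 to the cell surface. Adam10 itself stood at 267, 192 and 214 in untreated and at 202, 193 and 222 in treated SFs, a log2 fold change of -0.11 ± 0.24. Of the 5 other TspanC8 genes 3 were tested, and none passed the thresholds of the study. Tspan5, Tspan14 and Tspan17 had log2 fold changes of 0.39, -0.10 and 0.13, with unadjusted p of 0.265, 0.674 and 0.696 in limma. Tspan10 and Tspan33 stood at 6 normalised counts or less in every library.

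Clic5 (ENSMUSG00000023959; chromosome 17, 44188572 to 44280168, plus strand) stood at 6, 5 and 3 normalised counts in untreated and at 2, 1 and 5 in treated SFs. These values amount to approximately 5 and 4 reads in untreated replicates 2 and 3 and to 2, 1 and 3 reads in the treated libraries. No treated library exceeded the value of 3 reads, and a difference in Clic5 was not detectable at this depth.

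Genes of the CLIC family and of the ezrin complex, with which CLIC5 associates, were present at higher values. Ezr, encoding ezrin, rose from 42, 30 and 23 in untreated to 94, 52 and 66 in treated SFs, with no overlap between the groups and a log2 fold change of 1.13 ± 0.35, an unadjusted p of 0.00809 and an adjusted p of 0.241 in limma. The call of Ezr was lost without untreated replicate 3 (0.93) and without amisulpride replicate 1 (0.91). Msn, encoding the related moesin, stood at 1518, 1565 and 1675 in untreated and at 1304, 1020 and 1188 in treated SFs, with no overlap and a log2 fold change of -0.44 ± 0.23 (unadjusted p of 0.0805 in limma). Slc9a3r1, encoding a scaffold protein that binds ezrin, stood at 34, 31 and 39 in untreated and at 11, 25 and 20 in treated SFs, again with no overlap. Its log2 fold change of -0.92 ± 0.40 (unadjusted p of 0.0424 and adjusted p of 0.436 in limma) did not reach the fold threshold.

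Msn and Slc9a3r1 are named after their values were seen, as genes whose groups did not overlap. Of the 8 genes of this list 6 were tested, and in 3 of them the groups did not overlap, as in 16.5% of all genes. At the thresholds of the study 1 was called higher and 0 lower, where 2.69% and 3.01% of all genes were. The median log2 fold change of the list was -0.11. Clic1 and Clic4, the CLIC genes that were tested, had overlapping groups, and Clic3 and Clic6 were listed at 0 in every library.

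**Figure D3:**
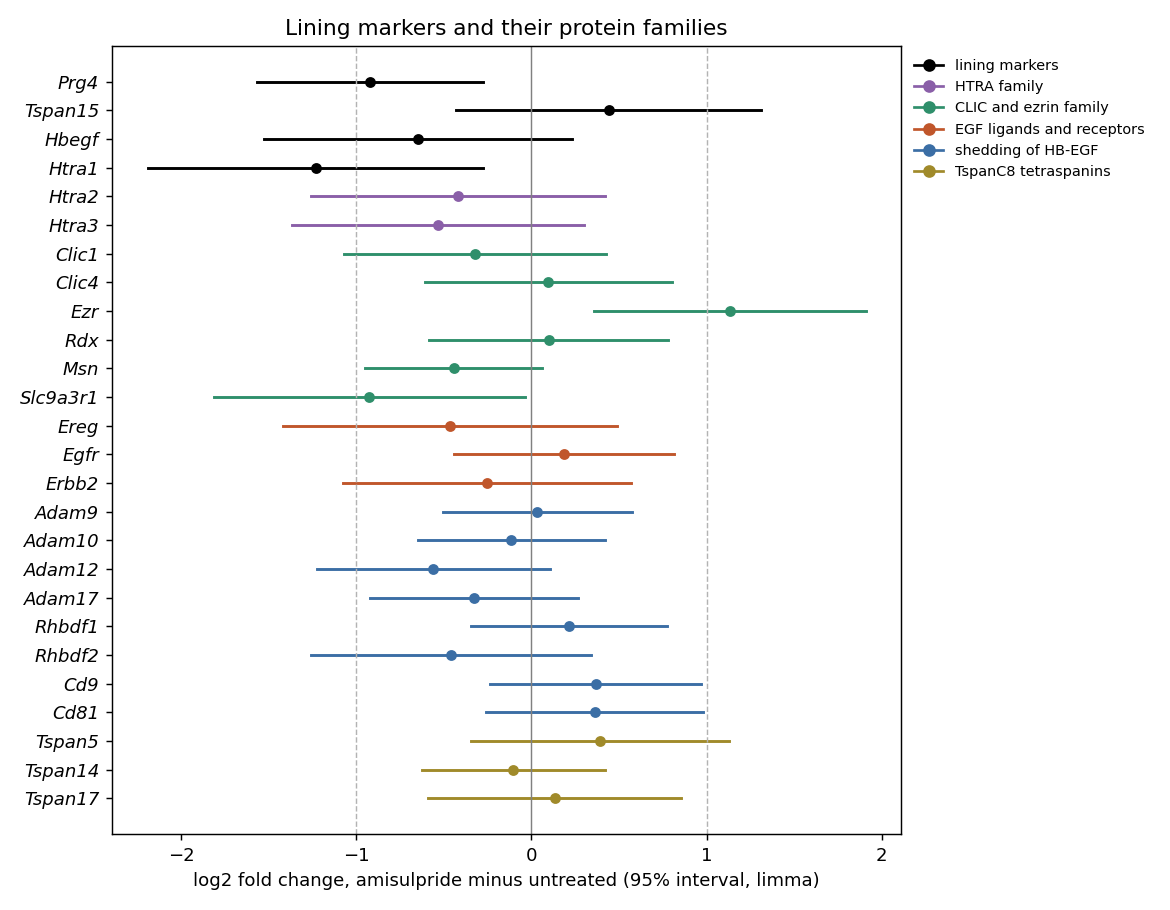
Log2 fold change, amisulpride minus untreated, with its 95% interval from limma, for the 4 tested lining markers and the tested genes of their families; dashed lines mark the fold threshold of 1. Htra1 (-1.23) and Ezr (1.13) lie past the dashed lines, Prg4 (-0.92) just short of them.

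The members were set beside 8 further genes that lining fibroblasts express. Of these 7 were tested, 1 was called lower, 5 had fold changes above 0 and 2 below, and the median was 0.18. Mmp3, encoding the matrix protease stromelysin-1, fell from 4166, 5120 and 2530 in untreated to 666, 1118 and 1745 in treated SFs, with a log2 fold change of -1.79 ± 0.37, an unadjusted p of 0.000528 and an adjusted p of 0.0764 in limma, or 0.0091 with the replicate block. The treated libraries of Mmp3 and Prg4 had their highest value in replicate 3 and their untreated libraries the lowest in replicate 3, so that in both genes the groups came closest there. Vcam1, an adhesion molecule of inflamed synovium, stood at 2635, 2746 and 1785 in untreated and at 3896, 3475 and 1387 in treated SFs. Cd55, a complement regulator used to mark the lining, stood at 41, 92 and 20 in untreated and at 64, 87 and 20 in treated SFs. Both Vcam1 and Cd55 had overlapping groups, with log2 fold changes of 0.18 ± 0.38 and 0.18 ± 0.60. Crtac1 was listed at 1 in a single library and at 0 in the rest.

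Markers of sublining fibroblasts were present in the same cultures. Thy1 stood at 405, 838 and 605 in untreated and at 480, 838 and 796 in treated SFs, with a log2 fold change of 0.21 ± 0.32 and an unadjusted p of 0.52 in limma. Of the 8 sublining genes 6 were tested, all 6 with fold changes above 0 and a median of 0.60, and none passed the thresholds of the study. Ly6a, a surface marker of progenitor-like fibroblasts, stood at 1315, 1533 and 978 in untreated and at 3600, 3523 and 1029 in treated SFs, with a log2 fold change of 0.91 ± 0.43 and an unadjusted p of 0.06. Without amisulpride replicate 3 the log2 fold change of Ly6a was 1.51 with an adjusted p of 0.016 in limma. Col14a1, encoding a collagen, and Cxcl12, encoding a chemokine, had log2 fold changes of 0.60 and 0.59, with unadjusted p of 0.0892 and 0.154.

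Whether the lining and sublining genes differed from each other in their response was not tested. The members summed to 1136, 1123 and 1231 normalised counts in untreated and to 554, 463 and 893 in treated SFs, most of it Prg4. The sublining genes summed to 7733, 12838 and 6020 in untreated and to 16045, 16951 and 8150 in treated SFs, most of it Cxcl12. Amisulpride replicate 3 lay nearest to the untreated libraries in the members' sum and within their range in the sublining sum. Since 4 of the 6 members were measurable and Thy1 was present in every library, the cultures did not show a lining profile alone.

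Transcripts of other cells that a joint culture could hold differed in level, with those of endothelium and muscle low. The endothelial genes summed to 15 or less in every library, with Cdh5 and Cldn5 listed at 0, and no endothelial gene was tested. The muscle genes summed to 16 to 47 in untreated and 11 to 28 in treated SFs, and Acta1 (log2 fold change of -0.79 ± 0.55, unadjusted p of 0.176 in limma) was the tested one. The genes of vessel-wall cells summed to 251 to 399 in untreated and 189 to 266 in treated SFs, with 3 of 6 tested, a median log2 fold change of -0.08 and Kcnj8 at 1 or less in every library. Of the tested genes, Notch3, encoding a receptor, and Cspg4, encoding a proteoglycan, had log2 fold changes of -0.08 and 0.21, with unadjusted p of 0.862 and 0.608 in limma. The third, Mcam, an adhesion molecule, fell from 112, 122 and 184 to 53, 47 and 57, with a log2 fold change of -1.37 ± 0.29, an unadjusted p of 0.000576 and an adjusted p of 0.0764 in limma, or 0.0191 with the replicate block. Mcam was highest in untreated replicate 3, as was Htra1, and its part in the Htra1 result was not tested.

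The 4 tested members were compared with each other across the 6 libraries. On the log2 scale, the Pearson correlation over libraries was 0.66 between Prg4 and Hbegf, 0.62 between Prg4 and Htra1 and 0.66 between Hbegf and Htra1. Tspan15 ran opposite to them, at -0.88 with Prg4, -0.89 with Hbegf and -0.64 with Htra1. Within the untreated group, replicate 3 was the lowest library for Prg4 (733) and the highest for Htra1 (391), so these genes did not share an order there. The correlations are descriptions over 6 libraries of 2 groups, which share the treatment and their depth.

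The genes most like each member were sought among 7242 protein-coding genes with a mean of at least 50, by the same correlation over the 6 libraries. Because they were picked by this correlation, an order of libraries shared with the member follows largely from the pick. For Prg4 the most alike were Scamp3 (0.99), Ptges3l (0.989), Tmem183a (0.988), Mcm5 (0.985) and Tesk2 (0.98). Ptges3l stood at 191, 169 and 156 in untreated and at 61, 48 and 116 in treated SFs, and Mcm5, encoding a subunit of the replicative helicase, at 83, 65 and 65 and at 34, 21 and 61. As in Prg4, amisulpride replicate 2 was the lowest and amisulpride replicate 3 the highest of the treated libraries in both genes.

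For Tspan15 the most alike were Hspa14 (0.988), Trp53inp1 (0.988) and Canx (0.986). Canx, which encodes the endoplasmic reticulum chaperone calnexin, stood at 1664, 1537 and 1577 in untreated and at 2320, 2216 and 1550 in treated SFs. As in Tspan15, amisulpride replicate 3 was the 1 treated library not above the untreated ones. For Hbegf they were Rbpms2 (0.986), Cttnbp2nl (0.981) and Ubac2 (0.966). Rbpms2, encoding an RNA-binding protein, stood at 105, 83 and 88 in untreated and at 29, 55 and 102 in treated SFs, in the same order of treated libraries as Hbegf.

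For Htra1 they were Nrg1 (0.976), Rcor2 (0.974) and Trim28 (0.968). Nrg1, which encodes a ligand of the ERBB receptors, stood at 49, 77 and 111 in untreated and at 34, 44 and 54 in treated SFs, with a log2 fold change of -0.78 ± 0.36 and an unadjusted p of 0.0511 in limma. Its libraries stood in the same order as those of Htra1 within each group.

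**Figure D4:**
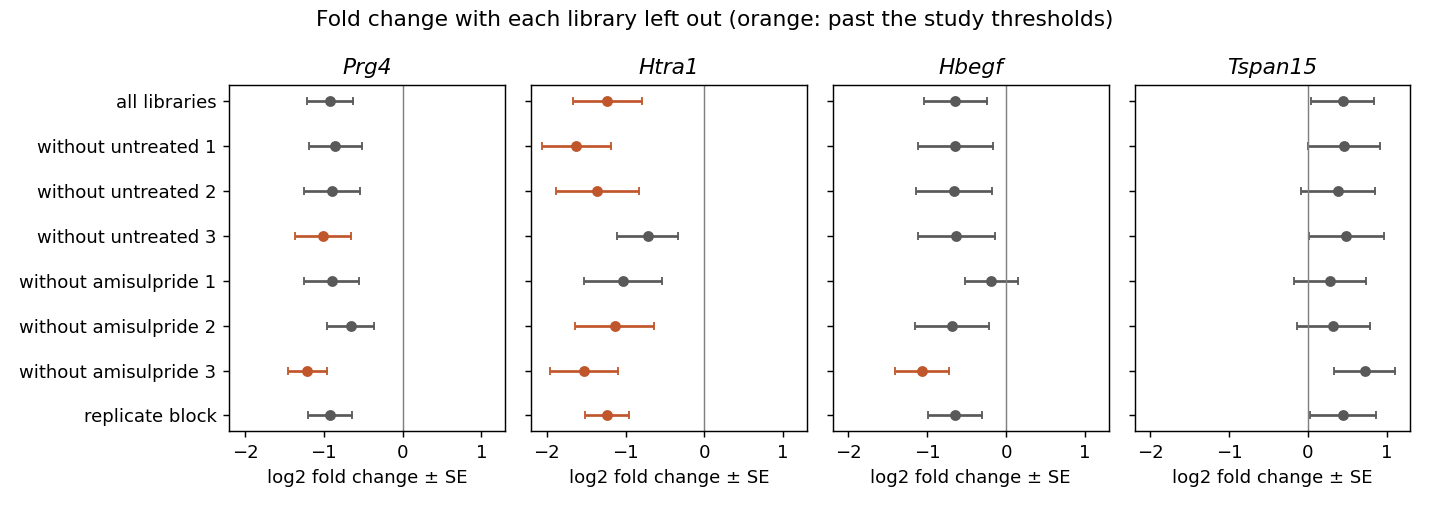
Log2 fold change ± SE of the 4 tested members with all libraries, with each library left out in turn and with the replicate number as a block; orange marks values past the thresholds of the study. Prg4 passes them without untreated replicate 3 or amisulpride replicate 3, Hbegf passes them without amisulpride replicate 3, Htra1 does not without untreated replicate 3 or amisulpride replicate 1, and Tspan15 never does.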

How the data were processed

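SFs of hTNFtg mice were profiled by 3′ mRNA sequencing (QuantSeq, Ion Proton) in 3 untreated and 3 amisulpride libraries, which the study describes as biological replicates. The authors mapped reads to mm10 with TopHat2 and Bowtie2, counted them per gene with GenomicRanges and normalised the counts, working through metaseqr. The study's methods name DESeq for the differential expression and name no method of normalisation (versions not given in the sources used here). The deposited values are a score, that is normalised counts which the authors rounded to whole numbers, so a count model was not used. Another 12 deposited columns of values per library, and the authors' own fold changes and p-values, were not used. The study's methods speak of vehicle for the controls, and its label says no treatment.

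Groups were compared with limma 3.58.1 (R 4.3.3) on log2(normalised count + 1), with a variance trend, for genes of at least 10 in at least 3 of 6 libraries, two-sided, with Benjamini-Hochberg adjustment over 12614 genes. The script was tested on simulated data. The pseudocount understates changes of low genes. An exact permutation test of 3 against 3 cannot reach 0.05 and was not run. Reads per library were estimated from the step between low values (0.834 to 1.79 normalised counts per read in 5 libraries), and a floor of 3 reads, 2.5 to 5.37 normalised counts, covers counting error only.

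Same-numbered libraries deviated together (r of 0.229, 0.240 and 0.201 across genes, against -0.149 to -0.078 for other pairs), so values with the replicate number as a block are given where they change a call. The members and the lists, which were written from general knowledge, were chosen with earlier results of these data known. Beyond the members, a rule named the genes of each list past the study thresholds or else at most the 3 with the lowest p. Defining markers of other cells and the 5 (Prg4) or 3 genes most like a member were named too. Further genes were named outside this rule, among them Tpr, Fgfr2, Has2, Tgfb1, Adam10, Adam17, Vcam1, Cd55, Fn1, Msn, Slc9a3r1, Notch3 and Cspg4. Alternatives covered the pseudocount, the filter, the scaling, the variance model, library weights, the block and leaving out each library.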

Additional observations from a re-analysis of the deposited data

How the results depend on the processing

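Under all 15 other settings of the fit the 4 tested members kept their direction, and without a filter, where all 6 members entered, 4 were lower. Prg4 passed the study thresholds with library weights (-1.07) and with Tpr subtracted (-1.21), where the subtraction itself enlarges the change. Its log2 fold change ran from -1.21 to -0.66 with single libraries left out. Htra1 ran from -1.62 to -0.72, Hbegf from -1.06 (past the study thresholds) to -0.19 and Tspan15 from 0.28 to 0.72. Clic5 and Htra4 are not interpreted at their depth. The replicate block brought the adjusted p of Htra1 to 0.0284 in limma and changed no other member's call. It also brought those of Mmp3 and Mcam under 0.05. The cause of these shifts was not tested.

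The 36 genes with an adjusted p under 0.05 in limma became 57 with a pseudocount of 5, 57 without a filter, 66 with quantile normalisation, 195 with library weights and 263 with the replicate block. With single libraries left out the count ran from 0 to 120, and amisulpride replicate 3 was the library whose omission gave 120. It was 1 without untreated replicate 1, and 0 if untreated replicate 2 or 3 was omitted, with 1083 and 911 genes then under an unadjusted p of 0.05. It was 17 and 6 when amisulpride replicates 1 and 2 were omitted. The 719 genes past the study thresholds became 1313 without a filter and 563 to 1000 with single libraries left out. The median log2 fold change of all genes was 0.002, -0.005 with quantile normalisation and -0.022 with upper-quartile scaling.

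Over the 30 other genes named by the rule on thresholds and lowest p, there were 449 values. Of these, 430 stayed on their side, 9 lost and 4 gained a call, and 6 changed sign. With single libraries left out, Ereg ran from -0.73 to 0.047 (reversed when amisulpride replicate 2 was omitted), Egfr from -0.023 to 0.35 (likewise), Comp from -0.099 to 0.76 (untreated replicate 3) and Tspan17 from -0.11 to 0.44 (amisulpride replicate 3, and untreated replicate 3 at -0.085). Tspan17 also changed sign with library weights (-0.0325). The mean filter, the scalings, the variance model, the weights and the block gave no value for Clic5 and Htra4, which were under the filter on low values.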

Other observations

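Matrix and tendon genes of the same cultures were read as groups. Of 10 general fibroblast genes, 6 lay above and 4 below 0, with a median log2 fold change of 0.19 and none past the study thresholds. Col1a2, encoding a chain of type I collagen, had a log2 fold change of 0.71 with an unadjusted p of 0.0601 in limma. Pdpn, a surface marker of SFs, had a log2 fold change of -0.67 and Lum, encoding the collagen-binding proteoglycan lumican, one of -1.07, with unadjusted p of 0.083 and 0.0901. Lum passed the study thresholds with the replicate block (unadjusted p of 0.00149 in limma) and without amisulpride replicate 2.

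Of 4 tendon genes, 3 lay above 0, with a median of 0.44 and none past the study thresholds. Scx, encoding a transcription factor of tendon cells, had a log2 fold change of 0.49, Tnmd, encoding tenomodulin, one of 0.59 and Thbs4, encoding a matrix glycoprotein, one of 0.39, with unadjusted p of 0.149, 0.17 and 0.233 in limma. The tendon genes summed to 1655 to 2574 normalised counts in untreated and 2088 to 3624 in treated SFs.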
